A study of Mus musculus with 12 samples.

Results

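The 10 genes described here encode transcription factors that mark or pattern the mesenchyme around the developing inner ear: *Pou3f4*, *Tbx18*, *Tbx1*, *Tbx15*, *Prrx1*, *Prrx2*, *Twist1*, *Twist2*, *Foxc1* and *Foxc2*. They were chosen by name, with earlier results of these data known, and all 10 are among the 24489 genes of the deposited count table. Between E14.5 and E17.5 all 10 were called higher in mesenchymal cells than in neurons and glia of the same plates, although *Prrx2* overlapped with neurons, *Tbx15* overlapped with both on single plates, and the *Tbx15* call over glia was lost in 6 of 18 alternatives. Single mesenchymal cells held a median of 5 to 7 of them on the better separated plates, most often *Foxc1*, *Pou3f4*, *Tbx18* and *Prrx1*. At E14.5 a sizeable set of mesenchymal cells had neither *Pou3f4* nor *Tbx18* and more *Prrx1* than cells with both. In the neurons *Pou3f4* and *Prrx2* were the exceptions to near absence. Neuronal *Pou3f4* was lower and *Prrx2* higher on the plates of E18.5 and P3 than on those of E14.5 and E15.5, without a test, since those later stages come from other plate series.

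Otic mesenchyme is the periotic connective tissue, of mesodermal and neural crest origin, that condenses into the cartilaginous capsule and later forms the bony labyrinth, the modiolus, the spiral limbus and the fibrocytes of the lateral wall. Neurites of spiral ganglion neurons (SGNs) cross it on their way to the hair cells (HCs). *Pou3f4* (POU domain), *Tbx18* and *Tbx1* (T-box) are needed in this tissue for normal hearing or for normal cochlear shape in mice, and *Pou3f4* acts there in the bundling of SGN axons. The other members are broader regulators of mesenchyme: *Prrx1* and *Prrx2* are paired-related homeobox genes of limb and craniofacial mesenchyme, *Twist1* and *Twist2* are basic helix-loop-helix factors of neural crest and mesoderm, *Foxc1* and *Foxc2* are forkhead factors of paraxial mesoderm and vessels, and *Tbx15* acts in skeletal and dermal mesenchyme.

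Single cochlear cells carrying tdTomato were sorted into 384-well plates and sequenced by Smart-seq2, which reads whole transcripts without molecule barcodes. The labels give the Ai14 tdTomato reporter with PVcre for every plate except plate SS2_20_133 of E14.5, which has TrkCcre, while the study's methods name Ntrk3Cre for E14.5. The Cre drivers are neuronal genes, *Pvalb* and *Ntrk3*, and glial and mesenchymal cells passed the same gate. Tissue of several animals was pooled, so a plate is a replicate and not an animal. The modiolus was taken from the opened cochlea at E14.5 and E15.5, and the spiral ganglion was taken after removal of the capsule at later stages. There were 2 plates at E14.5, 2 at E15.5, 3 at E16.5, 1 at E17.5, 2 at E18.5 and 2 at P3, and 4226 wells passed the filters. Summed counts per plate ran from 80997594 to 303906928.

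Cells were clustered within stages without the 10 factors, and clusters were named by marker genes. This gave 571 OM-like (otic mesenchyme), 1230 glia-like, 2279 SGN-like and 74 HC-like cells. OM-like cells numbered 197 and 167 on the E14.5 plates, 30 and 38 at E15.5, 71 on plate SS2_20_139 of E16.5 and 46 at E17.5. Plates SS2_18_349 and SS2_18_350 of E16.5 added 5 and 10, plates of E18.5 held 4 and 3, and no P3 cell was OM-like. The 12 mesenchymal markers summed to 11816 to 24024 counts scaled to a library of 1e6 (CPM) in OM-like cells of the SS2_20 plates, to 3326 to 7237 CPM in glia-like and to 21.98 to 173 CPM in SGN-like cells. *Otor*, a marker of inner ear fibrocytes, was at 524 to 7379 CPM in OM-like and at 3.37 to 13.9 CPM in glia-like cells. *Otor* is itself among the 12 markers used for naming, so its separation is no independent check of the classes. The SS2_18 plates stood apart: 13 of their 15 OM-like cells also carried markers of another class, against 4 of 549 on the SS2_20 plates, and their neuronal markers summed to 5952 to 7662 CPM in OM-like cells. The fits were therefore repeated on the SS2_20 plates alone, and shares and pairs in OM-like cells are mostly given for the SS2_20 plates. Folds, SEs and correlations with other genes include the SS2_18 plates unless stated. Each SE was calculated back from the edgeR test of its fold, so it is no separate estimate of spread.

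*Pou3f4* and *Tbx18* were the strongest of the 10 per kilobase of exon and the pair with the strongest relation in presence among the 45 pairs, and their promoters are shown for that reason. *Pou3f4* (ENSMUSG00000056854.4) is a gene of 1 exon on chromosome X of mm10, from 110814280 to 110817207 on the plus strand. *Tbx18* (ENSMUSG00000032419.8) lies on chromosome 9 from 87702800 to 87731260 on the minus strand, and 970 of its exon bases overlap the opposite-strand model D030062O11Rik. The sequences run from 250 bases before to 50 bases after the start site in RefSeq for GRCm38.p6, chrX:110814129-110814428 (plus) for *Pou3f4* and chr9:87731211-87731510 (minus) for *Tbx18*. Capitals mark CCAAT on either strand.
Pou3f4: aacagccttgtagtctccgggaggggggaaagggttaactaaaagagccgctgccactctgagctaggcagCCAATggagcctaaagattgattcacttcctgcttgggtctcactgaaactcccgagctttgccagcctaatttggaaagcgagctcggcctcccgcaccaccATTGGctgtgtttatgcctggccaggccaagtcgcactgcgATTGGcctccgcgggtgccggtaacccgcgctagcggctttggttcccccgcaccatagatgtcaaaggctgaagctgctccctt
Tbx18: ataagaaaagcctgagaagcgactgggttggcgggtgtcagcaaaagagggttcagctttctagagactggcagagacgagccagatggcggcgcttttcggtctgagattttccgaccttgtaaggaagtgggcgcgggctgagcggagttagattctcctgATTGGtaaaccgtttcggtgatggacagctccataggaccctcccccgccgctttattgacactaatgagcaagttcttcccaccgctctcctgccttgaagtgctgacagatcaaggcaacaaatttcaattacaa

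The *Pou3f4* window held 3 CCAAT boxes and the *Tbx18* window held 1. Of the 8 members matched to 9 promoters, 5 held a CCAAT box, against 37.4% of all 32851 promoters of this length. The E-box CANNTG, the motif bound by Twist proteins and their relatives, was in the windows of 2 members (*Tbx18* and *Tbx1*) and in 72.3% of all promoters. A TATA box (TATAAA) was found for *Twist1* alone (13.6% of all), and TAATTA for *Prrx1* alone (5.29% of all). The letters GTAAACA, AGGTGTGA and ATGCAAAT, searched on both strands for forkhead, T-box and POU sites, were in no member window and in 3.65%, 1.28% and 1.74% of all.

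The other members lie elsewhere in mm10. *Tbx1* is on chromosome 16 (18580979 to 18590671), *Tbx15* on chromosome 3 (99240381 to 99354259), *Prrx1* on chromosome 1 (163245119 to 163313710) and *Prrx2* on chromosome 2 (30834972 to 30881251). *Twist1* lies on chromosome 12 from 33957671 to 33959829, *Twist2* on chromosome 1 from 91801461 to 91848028, *Foxc1* on chromosome 13 from 31806633 to 31812476 and *Foxc2* on chromosome 8 from 121116171 to 121118895. The antisense gene Gm29100 shares 1477 exon bases with *Twist2*, and use of strand in counting was not stated, so reads of such partners cannot be told apart. Per kilobase of exon, OM-like levels over the 6 SS2_20 plates of E14.5 to E17.5 were 80.0 ± 17.9 CPM for *Tbx18* and 76.7 ± 14.7 for *Pou3f4* (SD, n = 6). The same per-kilobase level was 37.7 ± 14.8 for *Foxc2*, 22.5 ± 5.39 for *Twist1*, 18.3 ± 4.88 for *Foxc1* and 15.7 ± 5.97 for *Prrx2*. It was 14.1 ± 2.99 for *Tbx1*, 12.6 ± 5.90 for *Prrx1*, 10.8 ± 2.07 for *Twist2* and 3.11 ± 1.87 for *Tbx15*. *Tbx18* and *Pou3f4* did not differ beyond their spread, nor did any neighbours in the run from *Twist1* to *Twist2*. *Foxc2* lay between these sets, and *Tbx15* lay lowest.

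The first comparison asked how far each factor set mesenchyme apart from neurons and glia. In OM-like cells *Pou3f4* was at 189 and 212 CPM at E14.5, 218 and 194 at E15.5, 83.2, 128 and 307 at E16.5 and 227 at E17.5, the lowest values being those of the SS2_18 plates. In glia-like cells of the same plates *Pou3f4* was between 0.0667 and 11.3 CPM, and in SGN-like cells between 16.8 and 27.2 CPM. OM-like cells were above every glia-like and SGN-like value. *Tbx18* was at 269 and 283 CPM at E14.5, 423 and 375 at E15.5, 376, 278 and 464 at E16.5 and 450.3 at E17.5 in OM-like cells. It was at 4.74 CPM or less in glia-like and at 1.65 CPM or less in SGN-like cells, and the classes did not overlap. *Tbx18* had a log2 fold change of 9.36 against SGN-like (adjusted p = 5.31e-07 by edgeR, SE 0.79) and of 7.73 against glia-like cells (adjusted p = 6.95e-06 by edgeR, SE 0.73). For *Pou3f4* these were 3.49 (adjusted p = 0.000104 by edgeR, SE 0.58) and 6.63 (adjusted p = 1.42e-05 by edgeR, SE 0.70), so that *Pou3f4* stood further above glia than above neurons.

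All 10 factors were higher in OM-like than in SGN-like cells at an edgeR adjusted p under 0.05, where 24.6% of the 16203 genes tested were called higher (50.7% in either direction). All 10 were also higher than in glia-like cells, where 9.60% of all genes were called higher and 8.54% lower. The median log2 fold change of the 10 was 7.49 against SGN-like and 7.41 against glia-like cells, beside -0.07 and -0.04 over all genes tested. The classes come from the same cells and their counts, although no factor took part in making them. The 10 were chosen with earlier results of these data known. The study itself names *Pou3f4*, *Tbx18*, *Tbx1*, *Prrx1* and *Twist1* for its otic mesenchyme cells. The number called is therefore not independent of the choice of genes. The calls against SGN-like cells held for all 10 in each alternative, including the SS2_20 plates alone.

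**Figure D1:**
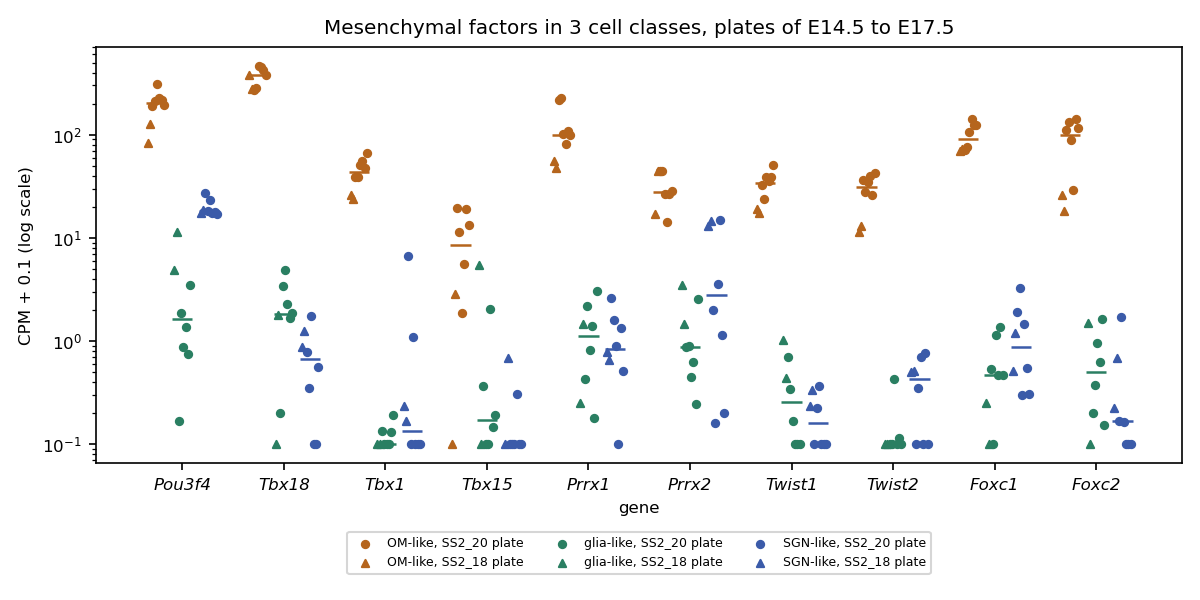
CPM plus 0.1 on a log scale for the 10 factors in OM-like, glia-like and SGN-like cells. Each point is 1 of 8 plates of E14.5 to E17.5 (circles SS2_20, triangles SS2_18), and bars are medians; the OM-like points stand above the others except for *Prrx2* and *Tbx15*.

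Among the remaining T-box members, *Tbx1* was at 38.6 and 38.8 CPM at E14.5, 47.1 and 65.9 at E15.5, 25.8, 23.8 and 50.6 at E16.5 and 56.0 at E17.5 in OM-like cells. Glia-like cells held at most 0.0914 CPM of *Tbx1*, which gave the largest fold among the 10 against glia, 11.30 on the log2 scale (adjusted p = 2.50e-05 by edgeR, SE 1.30). Against SGN-like cells *Tbx1* differed by 7.79 (adjusted p = 2.82e-05 by edgeR, SE 1.11). *Tbx15* was the scarcest. It was at 19.2 and 11.3 CPM at E14.5, 18.8 and 13.2 at E15.5, 0, 2.73 and 1.77 at E16.5 and 5.53 at E17.5 in OM-like cells, and glia-like cells reached 5.39 CPM on plate SS2_18_349, so these classes overlapped. *Tbx15* was 6.00 higher on the log2 scale than in glia-like cells (adjusted p = 0.0354 by edgeR, SE 1.89). That call was lost when any of 5 plates was left out (SS2_20_133, SS2_20_135, SS2_20_139, SS2_20_151 or SS2_20_153) and without the plate as a block (edgeR adjusted p up to 0.115 and log2 folds of 4.95 to 5.95). Against SGN-like cells the *Tbx15* call held in every alternative (log2 fold change 8.84, SE 1.97, edgeR adjusted p = 0.00132).

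The paired-related factors differed from each other outside mesenchyme. In OM-like cells *Prrx1* was at 219 and 227 CPM at E14.5, 108 and 99.3 at E15.5, 55.5, 47.2 and 101 at E16.5 and 81.9 at E17.5. It was at 2.96 CPM or less in glia-like and at 2.50 CPM or less in SGN-like cells, and the folds over these classes were 6.71 and 6.98 on the log2 scale (adjusted p = 1.61e-05 and 1.90e-06 by edgeR, SE 0.73 and 0.72). OM-like *Prrx2* was at 44.5 and 44.2 CPM at E14.5, 26.5 and 28.4 at E15.5, 17.0, 44.5 and 26.7 at E16.5 and 14.1 at E17.5. SGN-like *Prrx2* reached 14.7 CPM at E17.5 and 12.8 and 14.4 CPM on the SS2_18 plates, so mesenchyme and neurons overlapped in this gene, as they did in *Tbx15* through its 0 on plate SS2_18_349. *Prrx2* was called with the smallest fold of the 10 in each comparison, 3.23 against SGN-like (adjusted p = 0.00873 by edgeR, SE 0.94) and 5.24 against glia-like cells (adjusted p = 0.00113 by edgeR, SE 0.96).

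*Twist1* and *Twist2* were low but almost confined to the OM-like class among the 3 classes tested. *Twist1* ranged from 17.2 to 50.3 CPM over the 8 plates in OM-like cells, with at most 0.923 CPM in glia-like and 0.264 CPM in SGN-like cells. *Twist2* ranged from 11.3 to 42.4 CPM in OM-like cells, with at most 0.327 CPM in glia-like and 0.668 CPM in SGN-like cells. On the log2 scale they lay above SGN-like cells by 9.03 for *Twist1* (adjusted p = 1.67e-05 by edgeR, SE 1.22) and 7.20 for *Twist2* (adjusted p = 2.78e-05 by edgeR, SE 1.03). Against glia-like cells they were 8.13 and 10.33 (adjusted p = 0.000184 and 2.79e-05 by edgeR, SE 1.2 for both).

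The forkhead pair had like folds and unlike courses. *Foxc1* was at 70.8 and 75.8 CPM at E14.5, 124 and 124 at E15.5, 69.3, 71.8 and 105 at E16.5 and 141 at E17.5 in OM-like cells. *Foxc2* was at 111 and 131 CPM at E14.5, 141 and 115 at E15.5, 25.8, 17.96 and 88.5 at E16.5 and 29.0 at E17.5. Thus *Foxc1* was highest and *Foxc2* among its lowest on the E17.5 plate. Both stood above SGN-like cells (6.70 and 8.51 on the log2 scale, SE 0.74 and 1.09, edgeR adjusted p = 3.42e-06 and 1.08e-05) and above glia-like cells (7.69 and 7.12, SE 0.78 and 1.01, edgeR adjusted p = 9.17e-06 and 0.000139).

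Relatives of the 10 were read from lists of their families and of other regulators. Beside each list, 24.6% of all genes tested were called higher and 26.1% lower than in SGN-like cells. Against glia-like cells 9.6% of all genes were called higher and 8.54% lower. Of 11 forkhead relatives tested, 8 were higher in OM-like than in SGN-like cells and none lower, and 5 were higher and 1 lower than in glia-like cells. *Foxf2*, which acts in mesenchyme around epithelia, differed by 7.65 and 9.11 (SE 1.12 and 1.2), and *Foxd1* by 7.72 and 8.18 (SE 0.90 and 0.93). *Foxl1* had no count in SGN-like cells of these plates and 1343 counts in 50 of 564 OM-like cells. Pooled over plates, it lay at least 1048-fold higher in OM-like cells, taking 3 counts in the whole SGN-like class as its limit. The forkhead gene lower than in glia-like cells was *Foxd3*, a neural crest and glial factor, at -6.24 (SE 1.16). The median of this list was 5.80 against SGN-like and 1.74 against glia-like cells.

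Other families did not share one direction. Of 8 T-box relatives tested, *Tbx21* alone was higher than in SGN-like cells (4.98, SE 1.61) and *Tbx2* alone lower than in glia-like cells (-2.24, SE 0.75). Among 7 POU relatives, *Pou3f3* was higher than in both classes (5.33 and 6.47, SE 0.98 and 1.04), as was *Pou6f1* (0.67 and 2.01, SE 0.19 and 0.20), and *Pou3f2* was lower than in both (-3.05 and -6.76, SE 0.97 and 1.07). No paired-related relative of 6 tested was higher in OM-like cells: *Shox2* and *Uncx* were lower than in SGN-like cells (-7.22 and -4.52, SE 1.09 and 1.23). Of 4 Twist relatives tested, *Tcf24* was higher and *Msc* lower than in SGN-like cells (5.70 and -5.62, SE 2.0 and 1.37), and *Scx*, a tendon and ligament factor, and *Tcf15* were higher than in glia-like cells (6.20 and 4.58, SE 1.28 and 1.52).

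Among 28 other mesenchyme regulators tested, 15 were higher and 2 lower in OM-like than in SGN-like cells, and 15 were higher and 3 lower than in glia-like cells, with medians of 3.14 and 2.60. *Meox2* (9.35, SE 1.22) and *Osr1* (7.21, SE 0.95) had the largest folds over SGN-like cells, and *Eya1* and *Eya4*, which otic neurons also use, were the lower ones (-1.43 and -1.46, SE 0.53 and 0.56). *Osr1* (8.90, SE 1.04) and *Snai1* (7.99, SE 0.89) led over glia-like cells, where *Zeb2* and *Nr2f1* were lowest (-2.56 and -1.76, SE 0.44 and 0.33) and *Sox5* was at -1.54 (SE 0.50). Of 16 retinoic acid genes tested, 10 were higher and 2 lower than in SGN-like cells. *Aldh1a2*, which makes retinoic acid, was among the higher ones (6.52, SE 1.59), with *Dhrs3* (5.75, SE 0.93), and *Rxrg* and *Aldh1a3* were lower (-2.43 and -3.22, SE 0.71 and 0.78). Against glia-like cells 7 were higher and 2 lower, led by *Aldh1a2* (8.33, SE 1.56) and *Cyp26a1* (5.45, SE 1.67), with *Rxra* and *Rxrg* lower (-1.28 and -3.65, SE 0.27 and 0.74).

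*Epha4* and its ligand gene *Efnb2* form a guidance pair linked to *Pou3f4* in spiral ganglion fasciculation. *Epha4* was at 292 to 400.3 CPM in OM-like cells of the 6 SS2_20 plates and at 270.1 to 349.1 CPM in SGN-like cells, and these overlapped. It was at 9.26 to 25.3 CPM in glia-like cells of these plates and at 104 and 178 CPM on the SS2_18 plates. It was higher in OM-like than glia-like cells by 3.49 on the log2 scale (adjusted p = 0.000286 by edgeR, SE 0.54). *Efnb2* was lower in OM-like than in SGN-like cells by a log2 fold change of -0.81 (adjusted p = 0.00508 by edgeR, SE 0.22).

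Co-expression was then counted cell by cell, a factor being present in a cell with at least 1 count. On the SS2_20 plates *Foxc1* was present in 85.2% ± 9.51 of OM-like cells (SD, n = 6 plates), *Pou3f4* in 77.8% ± 13.6, *Tbx18* in 75.9% ± 13.5 and *Prrx1* in 71.6% ± 4.63. *Twist1* was present in 67.7% ± 10.4, *Foxc2* in 62.2% ± 18.8, *Tbx1* in 48.2% ± 8.91, *Twist2* in 40.4% ± 11.8 and *Prrx2* in 40.4% ± 6.49. *Tbx15* was present in 8.37% ± 5.26. Median depth was 241113 to 280403 counts a cell in this class, and shares after thinning each cell to 100000 counts were lower by a few points, from 7.59% for *Tbx15* to 82.0% for *Foxc1*. In glia-like cells of the same plates, at median depths of 228311 to 284211.5 counts, each factor was present in 0.142% (*Twist2*) to 3.13% (*Tbx18*) of cells on average. The shares in OM-like cells are thus far above those of a class of like depth. Shares cover detection only, since read counts are not molecule counts.

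Most OM-like cells carried several factors at once. The median number of the 10 per cell was 5 on both E14.5 plates, 6 and 7 at E15.5, 6 on plate SS2_20_139 of E16.5 and 6 at E17.5. On the SS2_18 plates it was 8 and 7, in 5 and 10 cells. Glia-like cells had a median of 0 on each SS2_20 plate. At least 5 factors were present in 62.9% and 65.9% of OM-like cells at E14.5, in 90.0% and 84.2% at E15.5, in 83.1% on SS2_20_139 and in 78.3% at E17.5, so both E14.5 plates lay below the later ones. No cell had all 10, 22 of 549 had 9, and 6 had none. With at least 10 counts asked for, the mean over the 8 plates of the median number fell from 6.25 to 4.69.

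**Figure D2:**
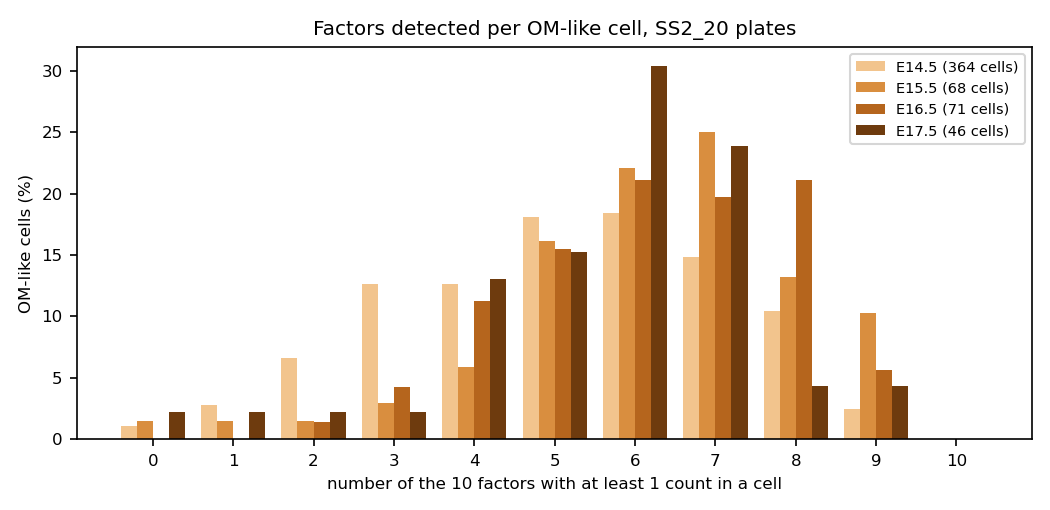
Share of OM-like cells (percent, y) by number of factors with at least 1 count (x), with a bar colour per stage, SS2_20 plates. A larger share of E14.5 cells than of E15.5 cells had 3 factors (12.6% against 2.94%), while cells with none were 1.10% at E14.5, 1.47% at E15.5 and 2.17% at E17.5.

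Presence of one factor was related to presence of another most strongly for *Pou3f4* and *Tbx18*. Both were present in 53.8% and 56.3% of OM-like cells at E14.5, where the product of their single shares is 37.7% and 41.0%. The shares with both were 80.0% and 60.5% at E15.5, 85.9% on SS2_20_139 and 80.4% at E17.5, beside products of 77.8%, 48.6%, 83.8% and 73.6%. The share lay above the product on all 6 plates, and of cells with *Pou3f4* 89.0% had *Tbx18*, of cells with *Tbx18* 91.3% had *Pou3f4*. The phi coefficient of the pair, the correlation of presence, averaged 0.50 (0.24 to 0.68 over plates). Over 549 cells, centred by plate, Pearson's r of log2(CPM + 1) was 0.59 for this pair, a description over cells that share libraries and depth.

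Of 45 pairs, 36 were found together more often than the product on average and 9 less often. The next highest mean phi were those of *Pou3f4* with *Foxc1* (0.28, lowest -0.076) and *Tbx18* with *Foxc1* (0.28, lowest -0.12), each above the product on 5 of 6 plates. These were found together in 71.2% and 69.7% of cells on average, beside 69.5% for *Pou3f4* with *Tbx18*. Besides *Pou3f4* with *Tbx18*, the pairs above the product on all 6 plates were *Twist1* with *Twist2* (phi 0.24, lowest 0.14), *Tbx1* with *Foxc1* (0.20, lowest 0.05) and *Prrx1* with *Foxc1* (0.13). *Tbx1* with *Tbx15* was below it on all 6 (phi -0.18, highest -0.06). The next lowest mean phi were those of *Tbx15* with *Tbx18* (-0.17) and *Pou3f4* (-0.15), which were not below 0 on every plate. Only 1 pair of the 45 had an r above 0.3, and the median r was 0.05.

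**Figure D3:**
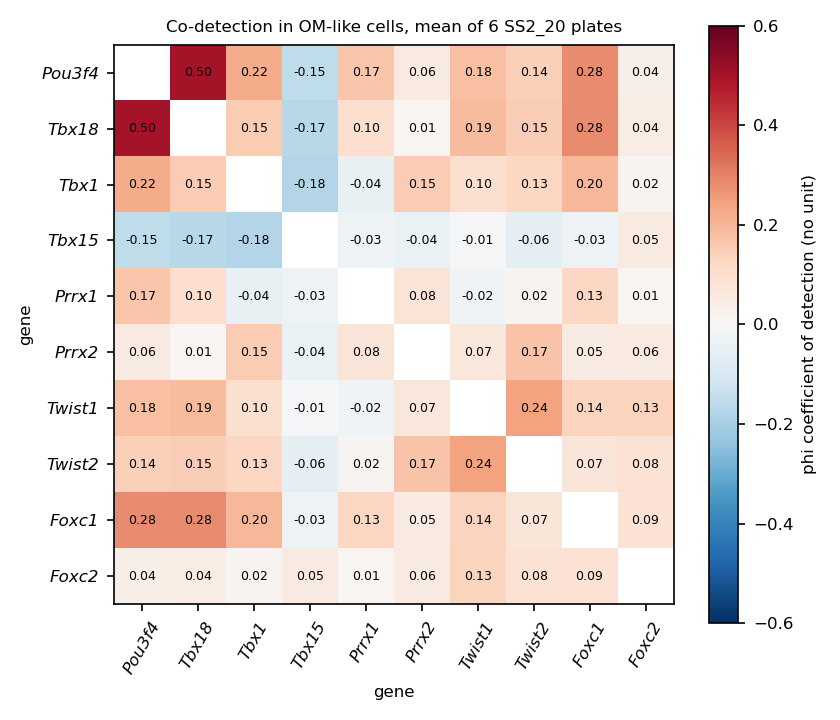
Phi coefficient of presence for each pair of factors in OM-like cells, mean of 6 SS2_20 plates (red above 0, blue below; no unit). *Pou3f4* with *Tbx18* stands out at 0.50, and the lowest values are those of *Tbx15* with *Tbx1*, *Tbx18* and *Pou3f4*.

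Cells with neither *Pou3f4* nor *Tbx18* made up 31.0% and 28.1% of OM-like cells on the E14.5 plates. They made up 3.33% and 21.1% at E15.5, 2.82% on SS2_20_139 and 8.70% at E17.5. Their median depth at E14.5, 285892 and 285091 counts, was no lower than that of cells with both, 274321 and 284038.5 counts. These cells kept other factors. *Prrx1* summed over the E14.5 cells with neither was at 414 and 410.0 CPM on the 2 plates, against 129 and 141 CPM in cells with both. *Tbx15* was at 42.5 and 34.6 CPM in cells with neither, against 2.98 and 0.0777 CPM in cells with both. *Tbx1* ran the other way, at 6.04 and 7.21 CPM against 59.6 and 54.3 CPM, and *Foxc2* was at 120.1 and 176 CPM against 109.8 and 110.4 CPM. On both E14.5 plates, cells with neither were thus high in *Prrx1* and *Tbx15* and low in *Tbx1*. At later stages only SS2_20_153 had over 5 such cells: its 8 had 97.4 CPM of *Prrx1*, beside 116 CPM in its cells with both.

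The clusters into which OM-like cells fell, made without the factors, are given as a description with no test. Levels are means over cells of each cell's CPM. At E14.5 there were 6 clusters. In a cluster of 53 cells led by *Gdf5*, a joint and interzone growth factor, *Pou3f4* was at 0.709 and *Tbx18* at 3.44 CPM, *Prrx1* was at 569 CPM and the chondrogenic markers summed to 13207 CPM. In a cluster of 48 cells led by *Islr* and *Col1a1*, *Pou3f4* was at 0.0872, *Tbx18* at 5.03 and *Prrx1* at 287 CPM, and the fibroblast markers summed to 20108 CPM. A cluster of 37 cells led by the cartilage genes *Matn1* and *Acan* split the pair: *Pou3f4* was at 218 CPM (present in 70.3% of cells) and *Tbx18* at 50.8 CPM (24.3%), with *Prrx1* at 373 and *Tbx15* at 54.6 CPM. Its chondrogenic markers summed to 23439 CPM. In all, the *Gdf5* cluster held 16.2% and 12.6% of the OM-like cells of the 2 plates and the *Islr* cluster 14.2% and 11.98%, so both plates, labelled with different Cre drivers, contributed.

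The other E14.5 clusters had *Pou3f4* at 214 to 489 CPM and *Tbx18* at 330 to 670.3 CPM. The highest of both was in 57 cells led by *Apod* and *Itga11*, with no *Tbx15* count. *Prrx1* was at 136, 124 and 156 CPM in these clusters, and their leading genes include *Tgfbi*. From E15.5 on, each cluster resembled these in the pair: *Pou3f4* ran from 189 to 300 CPM, *Tbx18* from 349.4 to 743 CPM and *Prrx1* from 85.1 to 117 CPM. Fibrocyte markers (*Otor*, *Car3*, *Coch* and others) summed to 288 to 2289 CPM in the E14.5 clusters, to 1328 and 5778 CPM at E15.5, to 5879 CPM at E16.5 and to 9843 CPM at E17.5.

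**Figure D4:**
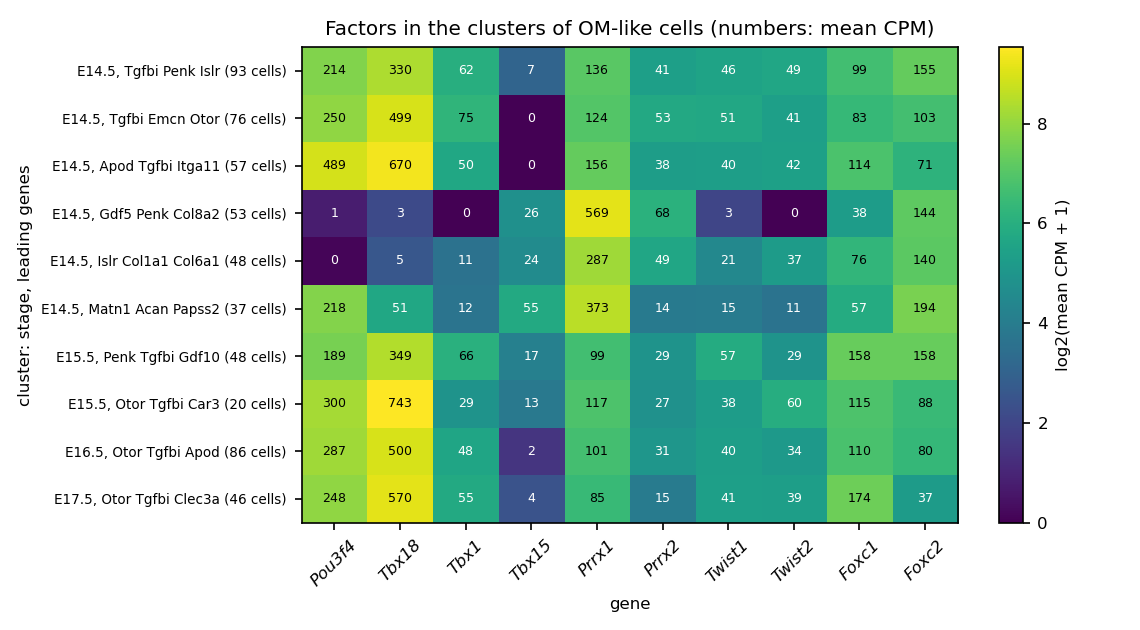
Mean CPM of each factor (columns, numbers in cells; colour is log2 of mean CPM plus 1) in each cluster of OM-like cells (rows, by stage with the 3 leading genes and number of cells). Rows of the *Gdf5* and *Islr* clusters of E14.5 are dark for *Pou3f4* and *Tbx18* and bright for *Prrx1*.

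Stage was compared over plates, 2 of E14.5 against 6 of E15.5 to E17.5. With edgeR 0 of 14480 genes passed an adjusted p under 0.05 (0.00%), hence 0 of the 10 factors; 399 genes had an unadjusted p under 0.05, and DESeq2 called 52, none of them a factor. *Prrx1* had the largest change of the 10, a log2 fold change of -1.42 after E14.5 (SE 0.34, edgeR unadjusted p = 0.00221, adjusted p = 1.00), and its E14.5 plates did not overlap the later ones. On SS2_20 plates alone it averaged 223 ± 5.58 CPM at E14.5 (SD, n = 2) and 97.4 ± 10.9 CPM later (n = 4), a log2 change of -1.14. Within cells that had both *Pou3f4* and *Tbx18*, *Prrx1* was at 129 and 141 CPM at E14.5 and at 95.3 to 128 CPM later, which is a smaller gap. *Foxc1* changed by 0.56 (SE 0.35), *Tbx18* by 0.53 (SE 0.26), *Twist1* by 0.28 (SE 0.49) and *Tbx1* by 0.25 (SE 0.45). *Pou3f4* and *Twist2* changed by -0.03 and -0.16 (SE 0.45 and 0.58), *Prrx2* by -0.77 (SE 0.42), *Foxc2* by -0.76 (SE 0.73) and *Tbx15* by -1.06 (SE 1.22). None of these was called. The dissection was the same at E14.5 and E15.5 and differed at later stages. By the labels plate SS2_20_135 of E14.5 had the PVcre driver of the later plates. By the study's methods the driver changed with stage after E14.5, in which case driver and stage cannot be told apart. The part of dissection, driver or mix of cells in the *Prrx1* difference was not tested.

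The shares of cells with single factors differed in their course over stages. Those of *Pou3f4* and *Tbx18* define the states above, so they are no second observation. *Pou3f4* was present in 63.5% and 65.9% of OM-like cells at E14.5, 93.3% and 68.4% at E15.5, 93.0% on SS2_20_139 and 82.6% at E17.5. *Tbx18* was present in 59.4% and 62.3%, then 83.3% and 71.1%, 90.1% and 89.1%. *Foxc1* was present in 72.1% and 74.3% at E14.5 and in 89.1% to 93.3% on later plates, with no overlap. *Foxc2* went from 67.0% and 62.9% at E14.5 to 86.7% and 71.1% at E15.5, 54.9% on SS2_20_139 and 30.4% at E17.5. The share with *Prrx1* ran only from 66.2% to 78.4% over these plates. The E16.5 and E17.5 values come from single SS2_20 plates.

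Glia-like and SGN-like cells differed in *Pou3f4* more than in the factors as a set. Over unscaled library sizes the 10 summed to 2.94 to 12.1 CPM in glia-like cells of the SS2_20 plates. They summed to 17.1 to 38.1 CPM in SGN-like and to 1077 to 1288 CPM in OM-like cells. With library sizes scaled by TMM, *Pou3f4* alone was at 16.8 to 27.2 CPM in SGN-like cells, so it is no exact part of these sums. Between glia-like and SGN-like cells, 3 of 10 were called lower in glia and none higher, where 25.7% of all genes tested were called lower and 24.4% higher (50.1% in either direction). *Pou3f4* was lower by a log2 fold change of -3.15 (adjusted p = 0.000437 by edgeR, SE 0.61), which held in each of 18 alternatives. *Twist2* (-3.14, adjusted p = 0.0244 by edgeR, SE 1.09) and *Tbx1* (-3.51, adjusted p = 0.0322 by edgeR, SE 1.29) rest on a few counts. The SGN-like *Tbx1* signal on plate SS2_20_133 is 97 counts in 1 cell of 61, and the call was lost without that plate (-2.22), without SS2_20_139 (-2.67) or SS2_18_349 (-3.49), on the SS2_20 plates alone (-3.67) and with sums of at least 10 cells (-3.50). It was also lost, with a smaller fold, when glial code genes were kept for clustering (-0.61), without cells carrying second-class markers (-1.51) and with classes by marker score (-1.90). For *Twist2* the call was lost without SS2_18_349 (-2.80), SS2_20_135 (-2.93) or SS2_20_151 (-2.61), on the SS2_20 plates alone (-2.38), without cells carrying second-class markers (-2.40), with glial code genes kept (-1.94) and with classes by marker score (-1.35). *Tbx18* was at 1.64 (adjusted p = 0.0526 by edgeR, SE 0.67) and passed the threshold in 9 of 18 alternatives. *Tbx15* was at 2.84 (adjusted p = 0.222 by edgeR, SE 1.86) and passed it on the SS2_20 plates alone (3.28), without SS2_18_350 (4.77) and without cells carrying second-class markers (3.399). *Prrx2* was at -2.01 (adjusted p = 0.0861 by edgeR, SE 0.94). It passed the threshold in 3 of 18 alternatives: with DESeq2 (-2.03) and without SS2_20_135 (-2.32) or SS2_20_153 (-2.59). *Foxc2* was at 1.39 (SE 1.03), *Twist1* at 0.90 (SE 1.14), *Prrx1* at 0.27 (SE 0.68) and *Foxc1* at -0.999 (SE 0.72), none of them called.

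**Figure D5:**
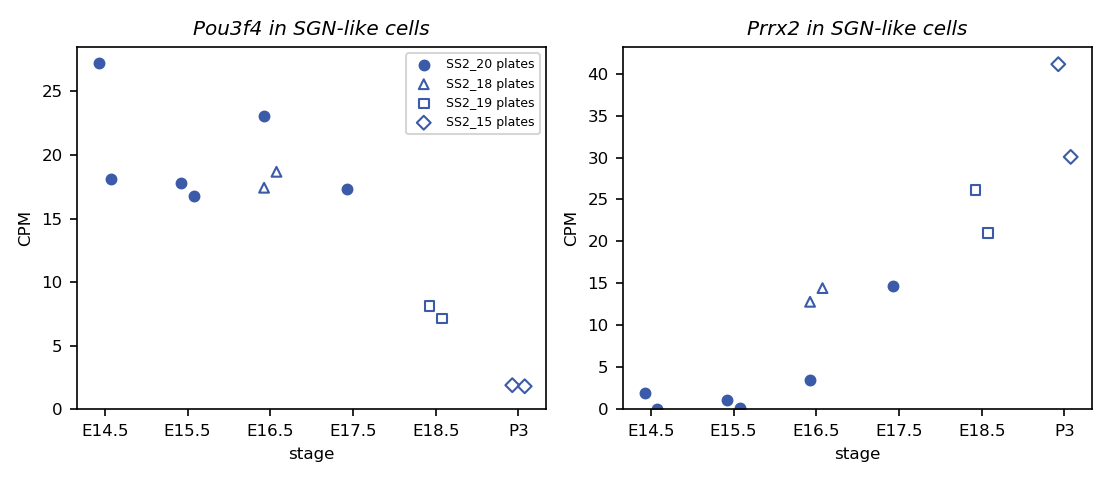
CPM of *Pou3f4* (left) and *Prrx2* (right) in SGN-like cells by stage; each point is a plate, with filled circles for SS2_20, triangles for SS2_18, squares for SS2_19 and diamonds for SS2_15. *Pou3f4* is 16.8 to 27.2 CPM to E17.5 and under 2 CPM at P3, and *Prrx2* goes from 1.89 CPM or less at E14.5 to 41.1 CPM at P3.

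*Pou3f4* in SGN-like cells was at 27.2 and 18.1 CPM at E14.5, 17.8 and 16.8 at E15.5, 17.4, 18.7 and 23.1 at E16.5 and 17.3 at E17.5. It was at 8.13 and 7.14 CPM at E18.5 and at 1.88 and 1.80 CPM at P3. It was present in 26.1% to 34.3% of SGN-like cells on the SS2_20 plates and in 46.3% and 46.4% on the SS2_18 plates. At P3 it was present in 12.2% and 16.0%. Glia-like cells had it in 1.24% to 4.00% on the SS2_20 plates, at like median depth. On the SS2_18 plates it was present in 5 of 18 and 3 of 9 glia-like cells (27.8% and 33.3%), within the range of the neurons, and 24 of these 27 cells carried markers of another class. At E18.5 glia-like cells had it in 57.6% and 31.8%, where 49 of 55 glia-like cells carried markers of another class. Of the 463 SGN-like cells with *Pou3f4* from E14.5 to E17.5, 58.5% had no other factor, and 1.94% had 3 or more others. Of 6 defining mesenchymal markers, such cells had a mean of 0.598 present, against 0.488 in SGN-like cells without *Pou3f4*.

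*Prrx2* ran the other way. It was at 1.89 and 0.0625 CPM at E14.5, 1.06 and 0.102 at E15.5, 12.8, 14.4 and 3.50 at E16.5 and 14.7 at E17.5 in SGN-like cells. It was at 26.1 and 21.0 CPM at E18.5 and 41.1 and 30.1 CPM at P3. The SS2_18 plates of E16.5 lay above the SS2_20 plate of that age. Its share in SGN-like cells was 3.28% and 1.45% at E14.5, 35.7% at E17.5, 65.6% and 65.0% at E18.5 and 77.9% and 76.0% at P3. At E18.5 this presence was not particular to neurons. Glia-like cells of plate SS2_19_166 had *Prrx2* in 78.8% (26 of 33), beside 65.6% of its SGN-like cells. The level on this plate went the other way. Where present, the median was 3 counts in glia-like and 8 counts in SGN-like cells. At least 10 counts were found in 18.2% of its glia-like and 28.9% of its SGN-like cells. Over both E18.5 plates 40 glia-like cells had *Prrx2* and 15 did not, and 49 of these 55 cells carried markers of another class. P3 cells were deeper (medians of 829034 and 1092427 counts), and thinned to 100000 counts the P3 shares were 66.7% and 62.4%. At P3 no cell was OM-like, and 81.7% of the 388 neurons with *Prrx2* had no other factor. Stage is tied to plate series from E18.5 on (SS2_19 at E18.5, SS2_15 at P3), so age and series cannot be told apart there and no test was made. Glial markers in SGN-like cells also differed with series, at 36.6 to 180 CPM on SS2_20, 843 to 994 on SS2_18, 3281 to 3360 on SS2_19 and 3071 to 3453 on SS2_15, and their part in the result was not tested.

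Within a stage the neuron clusters differed in both genes, given here without a test. At E16.5 *Prrx2* was present in 76.6% of 154 cells led by *Dcn*, *Necab1* and *Pcdh20* (26.1 CPM) and in 1.41% of 71 cells led by *Fam19a2* and *Sulf2* (0.141 CPM). *Pou3f4* was at 12.6 CPM in the first and 25.9 CPM in the second. In the joint clusters of E17.5 and E18.5, 48 cells led by *Hmcn1* and *Tectb* had *Pou3f4* at 20.0 and *Prrx2* at 1.32 CPM, while 43 cells led by *Tnc* and *Efna5* had 8.72 and 32.4 CPM. *Prrx2* was also at 34.6 CPM in 176 cells led by *Calb2* and *Nell1*. It was at 34.5 CPM in 82 cells led by *Egr2* and *Postn*, whose glial markers summed to 5728 CPM. Those markers summed to 961 CPM in the *Calb2* cluster, 4739 CPM in the *Tnc* cluster and 4906 CPM in the *Hmcn1* cluster. At P3 *Prrx2* was highest, at 70.9 CPM and in 100% of 22 cells, in the cluster led by *Plk5* and by *Th*, a known gene of type II SGNs. Clusters led by *Kcns3* and *Nell1* and by *Amigo2* and *Rxrg* followed, with *Prrx2* at 58.9 CPM (97.5%) and 53.2 CPM (99.0%). *Prrx2* was at 10.6 CPM (60.8%) in the cluster led by *Espn* and *Pou4f1* and at 13.4 CPM (62.6%) in that led by *Pou4f1* and *Hs3st2*.

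Genes most like each factor were sought among 10686 genes present in at least 10% of the 564 OM-like cells of E14.5 to E17.5, by Pearson's r of log2(CPM + 1) after centring each plate. For *Pou3f4* these were *Tbx18* (0.59), *Crym* (0.55) and *Irx3* (0.53), and for *Tbx18* they were *Crym* (0.63), *Pou3f4* (0.59) and *Lef1* (0.57). *Crym* encodes a thyroid hormone binding protein, and *Lef1* a transcription factor of Wnt signalling. The same 2 genes were among the 3 most like *Tbx1* (*Foxf2* 0.37, *Lef1* 0.36, *Crym* 0.31), *Twist1* (*Lef1* 0.33, *Crym* 0.33, *Tmem132c* 0.30) and *Twist2* (*Crym* 0.29, *Foxf2* 0.26, *Lef1* 0.25). *Foxc1* was most like *Apod* (0.30), *Tbx18* (0.29) and *Crym* (0.29). *Foxc2* was nearest to *Ntrk2* (0.25), *Col23a1* (0.22) and *Lepr* (0.21), *Prrx1* to *Xist* (0.25), *Notch2* (0.24) and *Fbln2* (0.24), *Tbx15* to *Kazald1* (0.24), *Mia* (0.23) and *Mecom-1* (0.23), and *Prrx2* to *Rai14*, *Ppap2c* and *Osbpl3* (each 0.18). The cells share 8 plates, and r of each factor with depth lay between -0.09 and 0.11.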

How the data were processed

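Single tdTomato+ cochlear cells were profiled by Smart-seq2. The authors deposited 1 table of read counts per gene and well, unnormalised. Per the labels and the study's methods, reads were aligned with STAR to mm10 with ERCC sequences, and uniquely mapped reads were counted. Scanpy is named in the submitters' processing notes. Strand use was not given in the sources used here. Of 13 plates, 1 (384 wells) matched no sample and was not used. Kept wells had at least 1000 genes and at most 5% ERCC counts, giving 4226 of 4608.

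Cells were clustered per stage (Scanpy 1.11.5, 2000 variable genes, 30 components, Leiden resolution 1) without the 10 factors, the listed genes and the study's glial code genes, and with no doublet caller; cells with markers of a second class were left out in an alternative. Clusters were named from marker lists. The naming rule (a minimum level of 0.2) was revised after the cluster tables were seen and before any test. The members and lists were chosen with earlier results of these data known. Counts were summed per plate and class (at least 5 cells) and tested with edgeR 4.0.16 (R 4.3.3; TMM, filterByExpr, quasi-likelihood F test, Benjamini-Hochberg over all genes), with the plate as a block for classes. Each SE is the absolute log2 fold change divided by the square root of F, so it restates the test. CPM values use TMM-scaled library sizes, with these exceptions. Clusters use the mean over cells of each cell's CPM, and correlations over cells use each cell's CPM. Summed counts over summed totals were used for cells split by *Pou3f4* and *Tbx18*, for summed markers and for *Otor*. They were also used for the sums of the 10 factors and for the *Foxl1* bound. Plates hold pooled animals, so p-values measure the spread between plates. Named genes were the 10 factors, the 3 genes most like each, and from each list those called with the 2 highest and 2 lowest folds, or all where 5 or fewer were called; a few listed genes are not reported here. DESeq2 1.42.0, no filter, other class rules and depths, and each plate left out in turn were alternatives. Scripts were tested on simulated data. Shares of cells with a factor were also computed after thinning each cell to 100000 counts (14 of 564 OM-like cells were shallower and left out), and counts of a factor in cells cover counting error only.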

Additional observations from a re-analysis of the deposited data

Results flagged for a closer look

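In each factor and class the 8 plates of E14.5 to E17.5 were searched for a single plate far from the others. Of 30 such groups 7 had one, and all 7 rest on few counts. The rule's nominal rate of about 1 in 20 groups need not hold at such levels. The 7 were therefore not read as an excess over chance. *Tbx1* in SGN-like cells was at 6.55 CPM on SS2_20_133 (97 counts, in 1 cell) beside 0.989 CPM on the next plate. *Foxc2* in SGN-like cells was at 1.62 CPM on SS2_20_135 (26 counts, 69 cells) beside 0.589 CPM, and *Tbx15* was at 0.589 CPM on SS2_18_350 (62 counts, 358 cells) beside 0.206 CPM. In glia-like cells *Pou3f4* was at 11.3 CPM on SS2_18_350 (33 counts, 9 cells) beside 4.77 CPM, and *Tbx15* at 5.39 CPM on SS2_18_349 (35 counts, 18 cells) beside 1.93 CPM. On these plates 24 of 27 glia-like cells carried markers of another class, and the part of such cells in the values was not tested. *Tbx1* was at 0.0914 CPM in glia-like cells of SS2_20_153 (5 counts, 220 cells), and *Twist2* at 0.327 CPM in those of SS2_20_139 (19 counts, 229 cells).

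Outside the 3 compared classes, *Tbx1* was at 243 CPM in the 8 epithelium-like cells of plate SS2_20_133, where each of the 8 had it and where it stood above its OM-like level on every plate. Epithelium-like cells of other plates had *Tbx1* at 13.4 CPM (8 cells of SS2_20_151), 24.7 CPM (5 cells of SS2_20_153) and 0 (8 cells of SS2_20_139). HC-like cells had it at 11.8 and 5.64 CPM on the E18.5 plates. These values were not tested.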

How the results depend on the processing

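The folds of all 10 factors over SGN-like cells kept their direction and call in each of 18 alternatives, as did those over glia-like cells except for *Tbx15*. With stage in place of the plate block, 8354, 3046 and 8246 genes were called in the 3 class comparisons (8207, 2938 and 8116 with the block). Without that pairing by plate, *Tbx15* lost its call over glia-like cells (4.95) and *Tbx18* gained one between glia-like and SGN-like cells (1.95). No paired analysis was possible for the stage comparison because a plate holds 1 stage.

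For stage, 0 genes became 52 with DESeq2, 2 without a filter on low counts, 1 with a linear trend over embryonic day, and 0 to 1 with a plate left out (1 without SS2_20_143). The fold of *Pou3f4* after E14.5 turned from -0.03 to 0.0081 with DESeq2, 0.13 with sums of at least 10 cells, 0.29 on SS2_20 plates alone, 0.0018 with the trend, 0.16 with glial code genes kept, 0.35 with classes by marker score, 0.30 without cells carrying second-class markers and 0.034 without the deepest 5% of cells. That of *Twist2* turned from -0.16 to 0.0078 (at least 10 cells), 0.22 (SS2_20), 0.036 (glial code genes kept), 0.25 (marker score) and 0.24 (no second-class markers), and that of *Twist1* to -0.020 with the trend. With a plate left out *Pou3f4* ranged from -0.21 to 0.13 and *Twist2* from -0.34 to 0.033. Between glia-like and SGN-like cells *Tbx1* turned to 0.87 at a Leiden resolution of 2, and *Prrx1* ranged from -0.26 to 0.71 with a plate left out. None of these reversed values passed the threshold, and the cause was not tested.

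The mean of the median number of factors fell from 6.25 to 4.69 with at least 10 counts asked for, the setting that also moved shares of 7 factors. On SS2_20 plates alone, an alternative chosen after seeing the data, it was 5.83. Few OM-like cells on some plates (5 and 10) and 2 plates of E14.5 limit the stage comparison.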
